A study of Mus musculus with 9 samples.

Results

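Mitosis, kinetochore and kinesin genes are described here across 3 groups of mouse CD4+ T cells. The members are the rows of the deposited gene table whose symbols belong to the kinesins (Kif), the centromere proteins (Cenp), the Ska, Spc and Bub genes, the Aurora kinases Aurka and Aurkb, the cyclins Ccna2, Ccnb1 and Ccnb2, the Ncap condensin subunits, or 12 further genes taken by name, among them Plk1, Cdc20, Mki67 and Psrc1. They number 78 of the 14912 genes in the table. The choice used names only, not measured values, but was made with earlier results of these data known. By role, 60 act in chromosome segregation or cell division and 18 are other kinesins, motors of intracellular transport for the most part.

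RNA of T cells from a mouse strain that makes eGFP from the Foxp3 locus (B6.Cg-Foxp3tm2(EGFP)Tch/J, hemizygous for Foxp3<tm2Tch>) was sequenced in bulk with a modified CEL-Seq protocol, in 9 libraries. Foxp3 is the transcription factor of regulatory T cells (Treg cells), so eGFP marks cells that have switched on that locus. The mTO-iTreg group (n = 3) held eGFP-positive cells taken on day 5 from co-culture with mouse colorectal tumour organoids. That medium held IL-2 at 20 U/ml, and anti-CD3 and anti-CD28 were used at 1 µg/ml each. The TGFβ-iTreg group (n = 3) held eGFP-positive cells taken on day 5 from cultures without organoids, where TGFβ was given at 10 ng/ml, IL-2 at 300 U/ml and both antibodies at the same dose, and the day 0 group (n = 3) held eGFP-negative CD4+ T cells before any culture. Time, culture, stimulation and the eGFP sort therefore all separate both iTreg groups from day 0, and organoids, TGFβ and the IL-2 dose all separate the iTreg groups from each other, so that their parts cannot be told apart.

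Cells that divide make the transcripts of mitosis late in the cycle and lose them on return to rest. Aurora and Polo-like kinases and cyclin B drive entry into mitosis. The CENP proteins lay the base of the kinetochore on centromeric chromatin, the Ndc80 and Ska complexes hold microtubules at its outer face, the Bub proteins delay anaphase until every chromosome is attached, and Cdc20 then activates the anaphase-promoting complex (APC/C). Condensin and topoisomerase II shape the chromosomes, and mitotic kinesins with the midzone proteins move them apart and set up the division of the cytoplasm. Resting T cells hold few of these transcripts, and T cells stimulated through CD3 and CD28 with IL-2 divide within days.

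Many promoters of this group are known for a CHR element (cell cycle genes homology region, the letters TTTGAA or TTCGAA), often with CCAAT boxes upstream of it, and the RefSeq promoters on GRCm38.p6 were read for both. Of the 78 genes, 68 matched the promoter table, and Aurkb, Ccna2, Kif13b, Kif20a, Kif21b, Kif5a, Kif5b, Ska1, Spc24 and Tpx2 did not. In windows from 250 bases before to 50 after a start site, with both strands searched, CHR letters stood in 36 of 54 mitotic genes (66.7%), in 2 of 14 other kinesins (14.3%) and in 5854 of all 27025 genes of the table (21.7%). CCAAT stood in 35 of the 54 mitotic genes (64.8%), against 41.1% of all genes, and both motifs stood together in 27 of the 54 (50.0%), against 8.61%. Matches of the motifs were counted separately, whether or not they overlapped. A match is a description of the letters, not a binding site.

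These promoters are shown because their genes carry the results that follow. In 5 with CHR letters the genes were higher in mTO-iTreg than in day 0 cells. Cenpe is a gene with the same direction but no CHR letters in its window. Kif2a is a kinesin called lower in TGFβ-iTreg than in day 0 cells, a call lost in 16 of 22 alternative fits. Each promoter runs 5′ to 3′ from 120 bases before to 25 bases after the RefSeq start site on the strand named. Capitals mark CHR letters (TTTGAA or TTCGAA) and CCAAT boxes (CCAAT or, on the other strand, ATTGG).
Psrc1, chr3:108383684-108383828, plus strand: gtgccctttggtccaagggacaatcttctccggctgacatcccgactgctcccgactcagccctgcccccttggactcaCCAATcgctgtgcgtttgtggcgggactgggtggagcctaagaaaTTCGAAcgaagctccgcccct
Cenpa, chr5:30666766-30666910, plus strand: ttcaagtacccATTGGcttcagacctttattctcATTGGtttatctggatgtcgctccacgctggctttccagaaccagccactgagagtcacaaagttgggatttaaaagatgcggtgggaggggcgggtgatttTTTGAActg
Cdc20, chr4:118437319-118437463, minus strand: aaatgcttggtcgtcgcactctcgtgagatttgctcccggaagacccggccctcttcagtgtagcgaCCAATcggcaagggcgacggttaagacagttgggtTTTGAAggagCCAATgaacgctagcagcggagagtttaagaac
Ccnb2, chr9:70421530-70421674, minus strand: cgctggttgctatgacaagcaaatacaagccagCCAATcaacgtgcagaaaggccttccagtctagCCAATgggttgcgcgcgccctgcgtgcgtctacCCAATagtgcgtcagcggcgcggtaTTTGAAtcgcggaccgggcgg
Kif23, chr9:61946775-61946919, minus strand: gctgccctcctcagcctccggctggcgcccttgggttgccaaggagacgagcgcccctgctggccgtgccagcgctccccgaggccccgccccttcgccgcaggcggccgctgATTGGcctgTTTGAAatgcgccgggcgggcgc
Cenpe, chr3:135212443-135212587, plus strand: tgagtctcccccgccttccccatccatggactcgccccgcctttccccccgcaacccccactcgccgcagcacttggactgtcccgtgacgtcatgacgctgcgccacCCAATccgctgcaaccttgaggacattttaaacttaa
Kif2a, chr13:107022090-107022234, minus strand: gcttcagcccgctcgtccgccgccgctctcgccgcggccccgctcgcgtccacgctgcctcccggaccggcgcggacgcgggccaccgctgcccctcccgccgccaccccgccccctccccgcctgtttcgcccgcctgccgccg
The CHR letters begin at transcript base 5 in Psrc1 and Ccnb2, at base 17 in Cenpa and at base 3 in Kif23, and 18 bases before the start site in Cdc20. Ccnb2 holds 3 CCAAT boxes in the stretch shown, 87, 54 and 21 bases before the start. Psrc1 has a second RefSeq start, from which the same letters lie 30 bases upstream.

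Values are normalized counts (a gene's count divided by a size factor of its library), fold changes are ratios of group means, and log2 changes with their standard errors come from limma on log2(normalized count + 1), which understates the change of rarely read genes. A gene is called higher or lower where limma's p, adjusted by the Benjamini-Hochberg method over all 10983 genes tested, lies under 0.05. Each standard error rests on a shared estimate of spread over all 3 groups. Day 0 libraries near 0 that differ on the log2 scale therefore widen it between the iTreg groups too. Of the 78 members 73 had enough signal to be tested. Library totals were 2078223 to 9944952 counts, and a count was worth 0.494 to 2.69 normalized counts, the most in day 0 replicate 2 and TGFβ-iTreg replicate 1, the shallowest libraries. Separate mice or cultures are not named in the labels, so the p-values reflect only how far these libraries differ, which may be technical. The codes in the sample descriptions have another form in the mTO-iTreg group than in both other groups, and whether they mark a batch cannot be told apart from the group. The 6 markers of CD4 T cells in the table were read in every library and summed to 13053, 13768 and 16520 in mTO-iTreg, 15323, 15876 and 14205 in TGFβ-iTreg and 25681, 25195 and 23643 in day 0 cells. Of these, Cd4 alone was called higher in mTO-iTreg cells, over both other groups, while 4 of the 6 were called lower in mTO-iTreg and 5 in TGFβ-iTreg than in day 0 cells.

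The mitotic genes were ordered mTO-iTreg, TGFβ-iTreg, day 0 from high to low, and the other kinesins were not. The 60 mitotic genes summed to 16851, 9238 and 15425 normalized counts in the mTO-iTreg libraries, 6134, 6659 and 5679 in the TGFβ-iTreg libraries and 2425, 2322 and 2459 in the day 0 libraries. No library of a group reached the range of the next, although mTO-iTreg replicate 2 lay far below the other two of its group. The mean sums of 13838 ± 4047 in mTO-iTreg, 6157 ± 490.4 in TGFβ-iTreg and 2402 ± 71.1 in day 0 cells (SD, n = 3 each) stood 2.25-fold apart between the iTreg groups, and 5.76-fold and 2.56-fold above day 0 in mTO-iTreg and TGFβ-iTreg cells. In bulk RNA, fewer dividing cells and less RNA per dividing cell cannot be told apart.

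**Figure D1:**
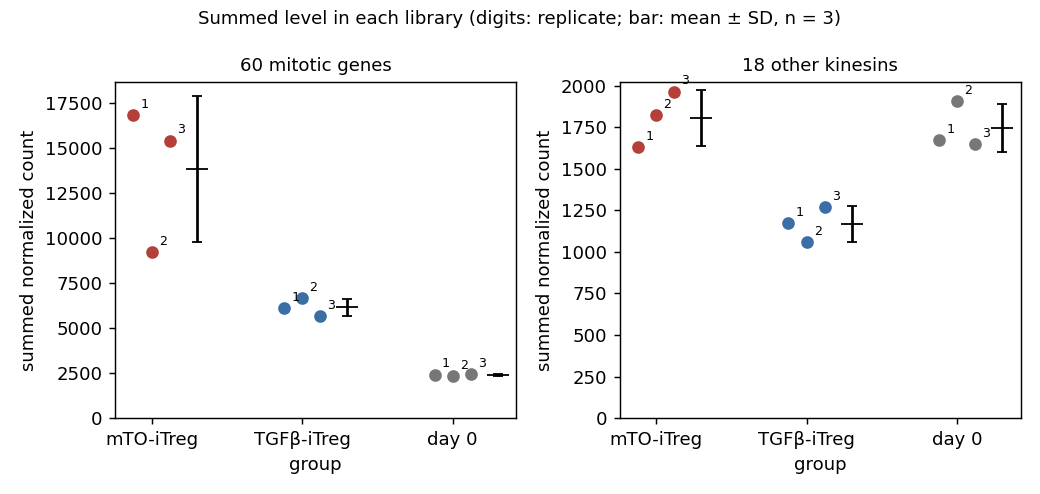
Summed normalized counts (vertical axis) of the 60 mitotic genes (left) and the 18 other kinesins (right) in each of the 9 libraries, with digits for replicates and bars for the mean ± SD of 3 libraries. The mitotic sum lay between 9238 and 16851 in mTO-iTreg libraries, 5679 and 6659 in TGFβ-iTreg libraries and 2322 and 2459 in day 0 libraries, and the sum of the other kinesins was lowest in TGFβ-iTreg libraries.

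Among the 73 members tested, 53 were higher and 3 lower in mTO-iTreg than in day 0 cells, where 19.4% of all genes tested were higher and 14.5% lower. In TGFβ-iTreg against day 0 cells 38 were higher and 6 lower, against 9.78% and 8.80% of all genes. In mTO-iTreg against TGFβ-iTreg cells 21 were higher and none lower, against 14.9% and 11.8% of all genes, and 52 were not called. Both comparisons with day 0 share the same 3 day 0 libraries. The median log2 change of the 73 members was 3.14 in mTO-iTreg against day 0, 1.93 in TGFβ-iTreg against day 0 and 0.94 in mTO-iTreg against TGFβ-iTreg, beside medians of 0.09, -0.02 and 0.13 over all genes tested. Group means followed the order mTO-iTreg, TGFβ-iTreg, day 0 in 53 of the 73. All 3 mTO-iTreg libraries lay above all 3 day 0 libraries in 54 members and below them in 3, against 25.8% and 20.3% of all genes. TGFβ-iTreg libraries lay above day 0 in 41 and below in 8, against 18.0% and 17.8%, and mTO-iTreg libraries lay above TGFβ-iTreg in 42 and below in 3, against 25.9% and 18.7%.

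The counts between mTO-iTreg cells and each of the other groups include Kif13b, which passed the filter on low values through the mTO-iTreg libraries alone. They also include Kif7, which outside those libraries reached the filter's 5 normalized counts in TGFβ-iTreg replicate 3 alone. Ska3, in the count over day 0, did so in TGFβ-iTreg replicates 2 and 3 alone. Without Kif13b 52 were higher in mTO-iTreg than in day 0 cells and 20 higher than in TGFβ-iTreg cells. Of the 60 mitotic genes, 50 were higher and 2 lower in mTO-iTreg than in day 0 cells, 37 were higher and 1 lower in TGFβ-iTreg than in day 0 cells, and 16 were higher in mTO-iTreg than in TGFβ-iTreg cells (26.7%). A limma-voom fit to counts recovered from the table, an alternative chosen after seeing the data, lowered the count of members higher in TGFβ-iTreg than in day 0 cells to 16 and raised that of members higher in mTO-iTreg than in TGFβ-iTreg cells to 35. Of the members named here, that fit ended the calls over day 0 in TGFβ-iTreg cells of Aurka, Bub1b, Bub3, Cdc20, Cenpa, Cenpk, Cenpm, Cenpn, Kif11, Kif2c, Kif4, Mki67, Ncapd2, Plk1, Prc1, Psrc1, Spc24 and Tpx2 and the falls of Kif16b, Kif21b and Kif2a (adjusted p 0.053 to 0.32). It ended those over day 0 in mTO-iTreg cells of Bub1, Cenpf, Cenpn, Kif7 and Ndc80 (0.052 to 0.11), and that of Kif7 between the iTreg groups (0.059). The count between the iTreg groups was 34 in a fit of the iTreg groups alone, and 13 without mTO-iTreg replicate 1, mTO-iTreg replicate 3 or TGFβ-iTreg replicate 3.

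**Figure D2:**
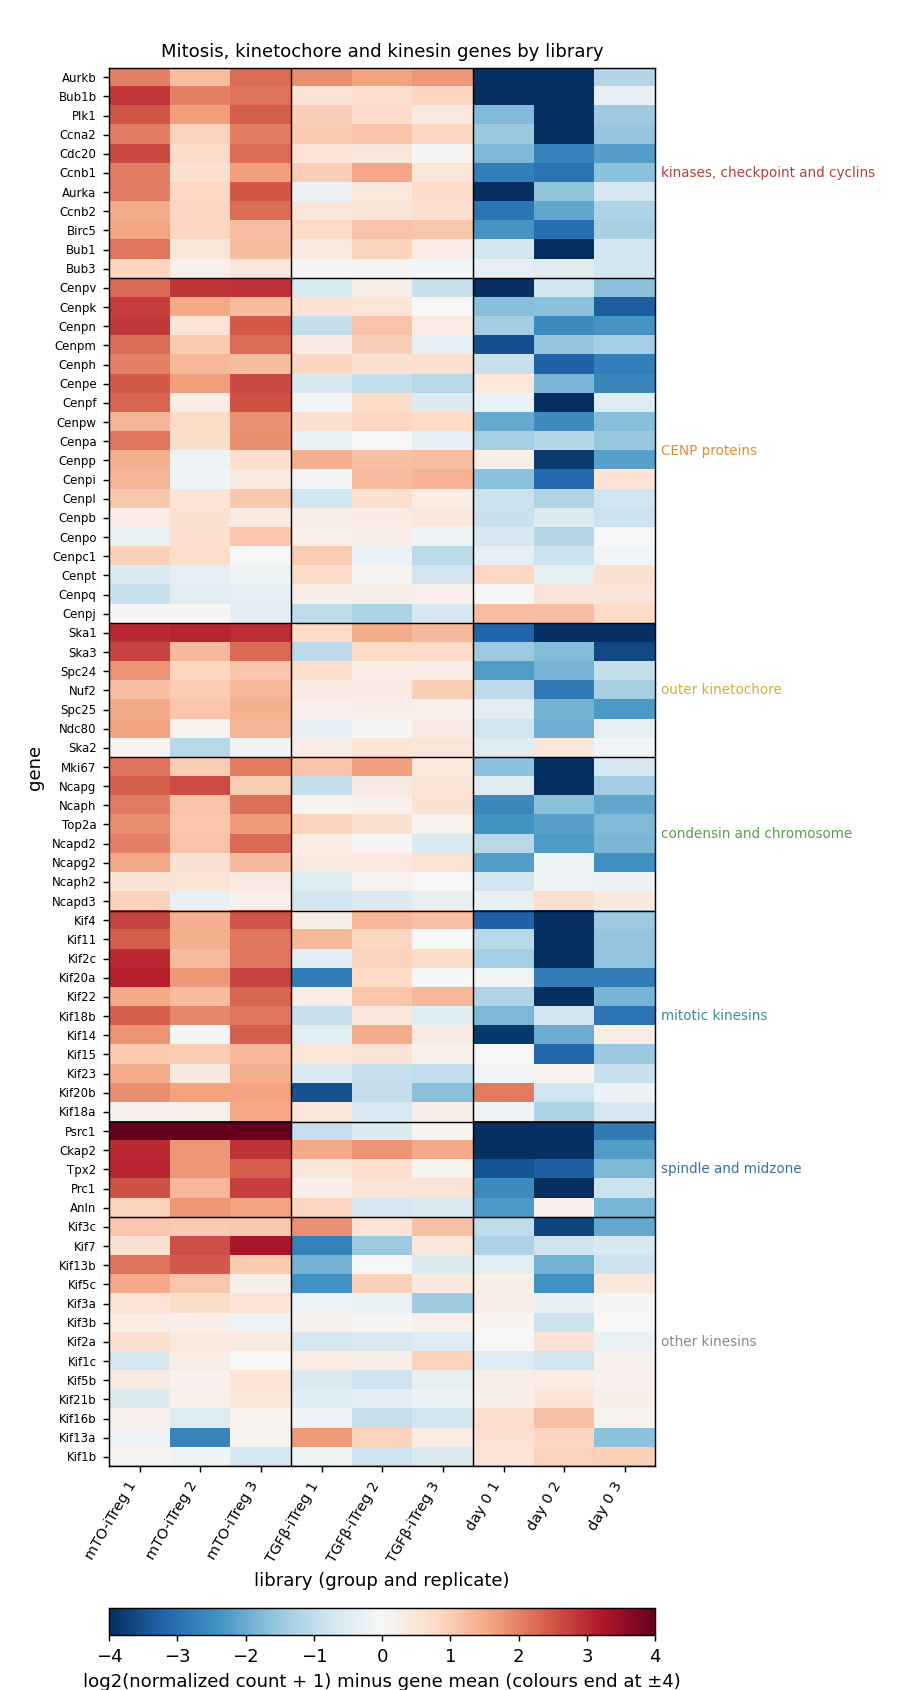
Each row is a member that was tested and each column a library, with colour for log2(normalized count + 1) minus that gene's mean over the 9 libraries, cut off at 4 on either side, and roles set apart by lines. Most mitotic rows are highest in the mTO-iTreg columns and lowest in the day 0 columns, with mTO-iTreg replicate 2 paler than its group, while the other kinesins at the foot show no such order.

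Kinases, checkpoint genes and cyclins were higher in both iTreg groups than on day 0, and most of them were not called between the iTreg groups. All 11 were higher in mTO-iTreg than in day 0 cells and 10 (90.9%) in TGFβ-iTreg than in day 0 cells, against 19.4% and 9.78% of all genes. Called higher in mTO-iTreg than in TGFβ-iTreg cells were 2 (18.2%), near the 14.9% of all genes. All 11 log2 changes were positive there, with a median of 0.77, against 0.13 over all genes. In 6 of the 11 all mTO-iTreg libraries lay above all TGFβ-iTreg libraries, against 25.9% of all genes. Ccnb1, the cyclin B1 that activates Cdk1, stood at 462, 177 and 353 in mTO-iTreg, 221, 327 and 155 in TGFβ-iTreg and 15.8, 13.4 and 34.8 in day 0 cells. The iTreg libraries overlapped, and all lay above day 0. Over day 0 it rose 15.5-fold in mTO-iTreg cells (log2 change 3.90 ± 0.42, adjusted p = 1.4e-05) and by a log2 change of 3.45 ± 0.42 in TGFβ-iTreg cells (adjusted p = 0.00011). The log2 difference between the iTreg groups was 0.45 ± 0.42 (95% interval -0.46 to 1.36, adjusted p = 0.46). Ccna2, cyclin A2 of S and G2 phase, had 499.9, 227 and 496 in mTO-iTreg, 251, 264 and 218 in TGFβ-iTreg and 42.1, 2.69 and 40.1 in day 0 cells. As with Ccnb1, mTO-iTreg replicate 2 sat inside the TGFβ-iTreg range.

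Aurkb, the kinase of the chromosomal passenger complex, was at 183, 106 and 213 in mTO-iTreg, 165, 138 and 149 in TGFβ-iTreg and 1.75, 0 and 19.0 in day 0 cells. Its fold over day 0 was 24.2 in mTO-iTreg and 21.8 in TGFβ-iTreg cells (adjusted p = 0.00016 and 0.0005 by limma), and the difference between the iTreg groups was 0.09 ± 0.79 on the log2 scale, with an interval of -1.61 to 1.79. That error takes in the spread of the day 0 libraries, with replicate 2 at 0. Birc5, survivin of the same complex, stood at 286, 169.97 and 224 in mTO-iTreg, 165, 209 and 201 in TGFβ-iTreg and 17.5, 10.8 and 36.9 in day 0 cells. The difference between the iTreg groups was 0.22 ± 0.39 for Birc5, with a narrower interval, from -0.62 to 1.05.

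Cdc20, the APC/C activator, separated the iTreg groups. Its level was 363, 98.6 and 272 in mTO-iTreg, 86.1, 79.3 and 58.8 in TGFβ-iTreg and 15.8, 8.06 and 11.6 in day 0 cells. All 3 groups were apart, and mTO-iTreg replicate 2 came close to the TGFβ-iTreg libraries. Cdc20 was 3.27-fold higher in mTO-iTreg than in TGFβ-iTreg cells (log2 change 1.52 ± 0.47, adjusted p = 0.028), a call lost without mTO-iTreg replicate 1 or 3 or TGFβ-iTreg replicate 2 or 3 (adjusted p 0.06 to 0.14). Bub3, a checkpoint protein that binds the kinetochore, was the other called gene of this role, at 1488, 947 and 1163 in mTO-iTreg, 861, 862 and 802 in TGFβ-iTreg and 632, 594 and 492 in day 0 cells. The groups did not overlap, but the step between the iTreg groups was small (1.42-fold, 0.49 ± 0.17, adjusted p = 0.045) and the call was lost without any of 6 libraries, namely mTO-iTreg replicates 1 and 3, all TGFβ-iTreg replicates and day 0 replicate 1 (adjusted p 0.051 to 0.2).

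The remaining kinases and checkpoint genes had higher mean levels in mTO-iTreg cells without passing the test between the iTreg groups in the fit reported. Of the 22 alternatives, 5 called Plk1, 4 Bub1b, 4 Ccnb2, 3 Aurka and none Bub1 higher in mTO-iTreg cells. The lowest adjusted p by limma was 0.0015 for Plk1, 0.0054 for Bub1b, 0.028 for Ccnb2 and 0.027 for Aurka. Plk1, the Polo-like kinase of mitotic entry, had 259, 141 and 241 in mTO-iTreg, 88.5, 74.6 and 56.3 in TGFβ-iTreg and 12.3, 0 and 15.8 in day 0 cells. No iTreg libraries overlapped, yet the adjusted p between the groups was 0.19 (log2 difference 1.51 ± 0.81). Aurka, which builds the spindle poles, was at 169 ± 84.4 in mTO-iTreg, 55.4 ± 17.5 in TGFβ-iTreg and 13.9 ± 12.3 in day 0 cells, and Bub1b, the checkpoint protein BubR1, at 109.6 ± 35.5, 33.4 ± 4.02 and 5.27 ± 9.14 in the same order (SD, n = 3). Aurka rose in TGFβ-iTreg over day 0 cells (adjusted p = 0.032), but not without TGFβ-iTreg replicate 2 or 3 or day 0 replicate 1 (0.081 to 0.1). Ccnb2, cyclin B2, was called over day 0 in both iTreg groups and stood 2.13-fold higher in mTO-iTreg than in TGFβ-iTreg cells, with no overlap and an adjusted p of 0.093. Bub1 was the gene of this role not called in TGFβ-iTreg against day 0 cells (adjusted p = 0.067), with 90 counts in the TGFβ-iTreg libraries and 13 in the day 0 libraries, and its call in mTO-iTreg against day 0 cells was lost without mTO-iTreg replicate 1 (adjusted p = 0.053).

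Psrc1, of the spindle and midzone genes, had the largest log2 change between the iTreg groups of the 73 members tested. All 5 were higher in mTO-iTreg than in day 0 cells and 4 (80%) in TGFβ-iTreg than in day 0 cells, against 19.4% and 9.78% of all genes. Higher in mTO-iTreg than in TGFβ-iTreg cells were 2 (40%), against 14.9% of all genes. Psrc1 (chromosome 3, 108383839 to 108388231 by GENCODE M21 on GRCm38), which encodes a microtubule-binding protein of the spindle and is known in human and mouse cells as a p53-responsive gene, was at 992, 574 and 799.8 in mTO-iTreg, 14.8, 19.7 and 29.6 in TGFβ-iTreg and 0, 0 and 3.16 in day 0 cells. The groups were far apart: the lowest mTO-iTreg library lay well above the highest TGFβ-iTreg library. Psrc1 was 36.9-fold higher in mTO-iTreg than in TGFβ-iTreg cells (log2 change 5.16 ± 0.59, adjusted p = 3.7e-05), and no alternative ended that call. Against day 0, where it had 3 counts in all, the ratio of counts at equal scaling was 493 in mTO-iTreg cells, with a 95% counting interval of 168 to 2390, and 15.3 (5.09 to 75.6) in TGFβ-iTreg cells.

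Tpx2, which activates Aurka on spindle microtubules, stood at 716, 294 and 462 in mTO-iTreg, 118, 139 and 92.9 in TGFβ-iTreg and 7.02, 8.06 and 24.3 in day 0 cells. The 3 groups did not overlap, and the gene was 4.21-fold higher in mTO-iTreg than in TGFβ-iTreg cells (1.99 ± 0.44, adjusted p = 0.0049). Ckap2, a microtubule stabiliser, had 272, 118 and 256 in mTO-iTreg, 98.4, 119 and 97.3 in TGFβ-iTreg and 0, 0 and 6.33 in day 0 cells. It rose 102-fold in mTO-iTreg cells over a day 0 level that rests on 6 counts, and the iTreg groups overlapped (adjusted p = 0.34). Prc1, which bundles midzone microtubules, averaged 442 ± 199 in mTO-iTreg, 118 ± 14.5 in TGFβ-iTreg and 21.4 ± 23.3 in day 0 cells, without overlap between the iTreg groups but with an adjusted p of 0.07. Between these groups 8 of the 22 alternatives called Prc1 (lowest adjusted p by limma 0.0035). Anln, anillin of the contractile ring, was called in mTO-iTreg against day 0 cells alone (5.53-fold, adjusted p = 0.0077).

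**Figure D3:**
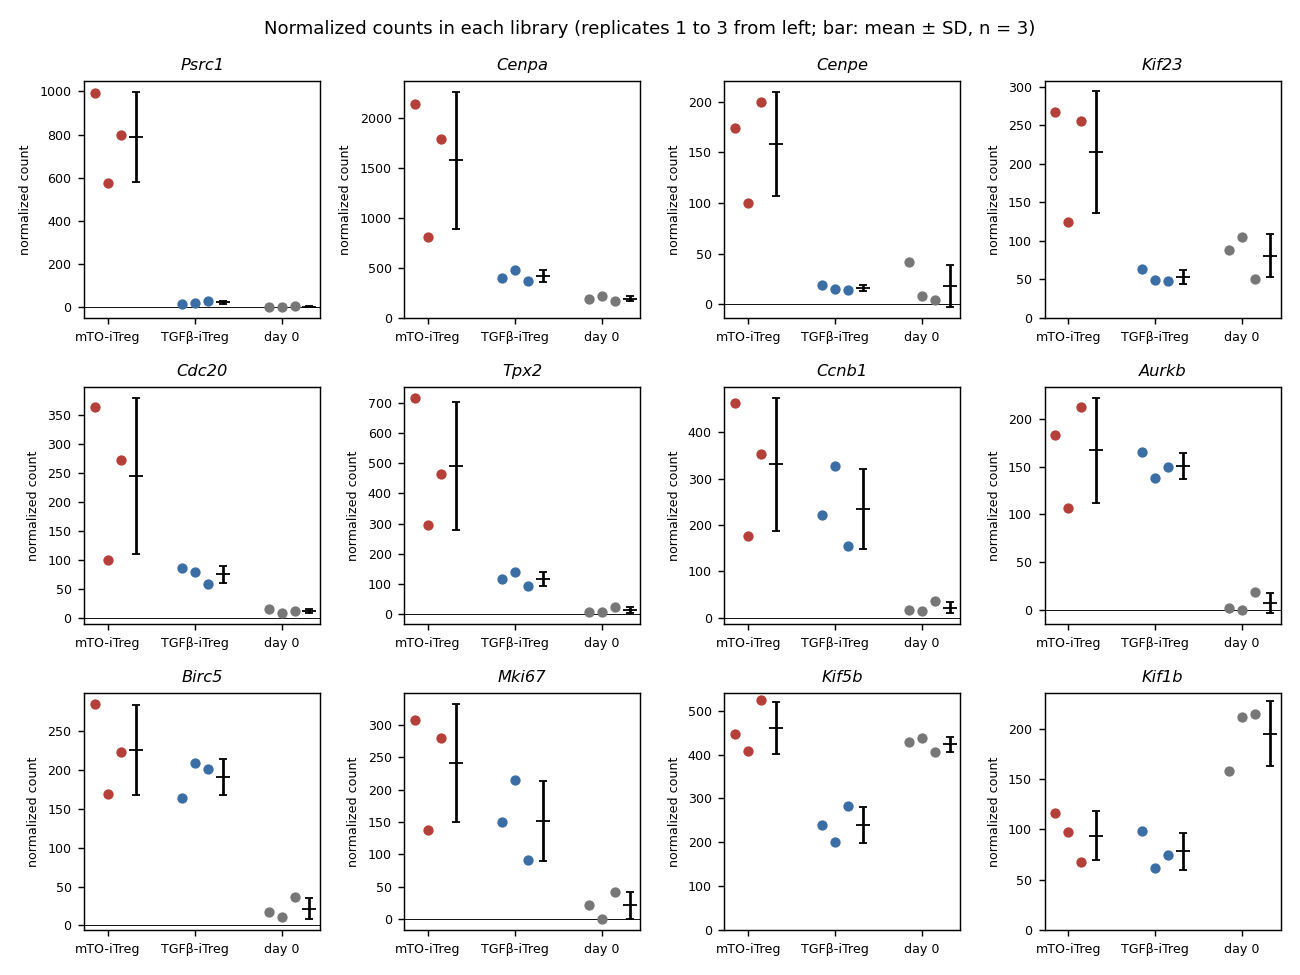
Normalized counts (vertical axis, linear) of 12 members in each library, replicates 1 to 3 from left within a group, with bars for the mean ± SD of 3 libraries. Psrc1, Cenpa, Cenpe, Kif23 and Tpx2 stood apart in mTO-iTreg libraries, Ccnb1, Aurkb, Birc5 and Mki67 overlapped between the iTreg groups, Kif5b was lowest in TGFβ-iTreg libraries and Kif1b highest in day 0 libraries.

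CENP genes split into those that rose, those that did not and a few that fell. Of 18 tested, 12 (66.7%) were higher and 2 lower in mTO-iTreg than in day 0 cells, against 19.4% and 14.5% of all genes. In TGFβ-iTreg against day 0 cells 8 (44.4%) were higher and 1 lower, against 9.78% and 8.80%. Called higher in mTO-iTreg than in TGFβ-iTreg cells were 3 (16.7%), near the 14.9% of all genes. The median log2 change there was 0.82, against 0.13 over all genes, and 14 of the 18 were positive. The mTO-iTreg libraries lay above all TGFβ-iTreg libraries in 7 and below them in 1, against 25.9% and 18.7% of all genes. Cenpa, the histone H3 variant that marks the centromere, was at 2137, 813 and 1784 in mTO-iTreg, 401, 483 and 368 in TGFβ-iTreg and 188, 218 and 168 in day 0 cells. No library overlapped with another group. The level was 3.78-fold higher in mTO-iTreg than in TGFβ-iTreg cells (1.81 ± 0.28, adjusted p = 0.00039) and 2.18-fold higher in TGFβ-iTreg than in day 0 cells (1.12 ± 0.28, adjusted p = 0.014), the second of which was lost without TGFβ-iTreg replicate 2 (adjusted p = 0.055).

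Cenpe, a kinesin motor of the kinetochore that carries chromosomes to the spindle equator, differed from that gradient. Its counts were 174, 100.5 and 199.9 in mTO-iTreg, 19.7, 15.6 and 13.8 in TGFβ-iTreg and 42.1, 8.06 and 4.22 in day 0 cells. The mTO-iTreg libraries lay above all others, while the TGFβ-iTreg libraries lay inside the day 0 range. Cenpe was 9.66-fold higher in mTO-iTreg than in TGFβ-iTreg cells (3.15 ± 0.66, adjusted p = 0.0034). Between TGFβ-iTreg and day 0 cells the ratio of means was 0.903 and the log2 change 0.44 ± 0.66 (adjusted p = 0.7), so that mean and log mean differ in sign. Cenpv, which acts at the centromere and midzone, was the third of the called CENP genes, at 94.8, 145 and 149 in mTO-iTreg, 12.3, 23.1 and 9.88 in TGFβ-iTreg and 0, 10.8 and 5.27 in day 0 cells (8.59-fold between the iTreg groups, 3.08 ± 0.79, adjusted p = 0.011).

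Cenph, Cenpk, Cenpm, Cenpn and Cenpw, subunits of the constitutive network of the inner kinetochore, were called higher in both iTreg groups, for example Cenpw at 213 ± 72.9 in mTO-iTreg, 138 ± 11.3 in TGFβ-iTreg and 19.0 ± 5.42 in day 0 cells. Cenpn lost its call in TGFβ-iTreg against day 0 cells without mTO-iTreg replicate 1 or 3, TGFβ-iTreg replicate 2 or 3 or day 0 replicate 2 or 3 (adjusted p 0.054 to 0.17). Cenpb, which binds a motif in centromeric repeats, was higher in mTO-iTreg (2.27-fold) and in TGFβ-iTreg cells (2.14-fold) than in day 0 cells, with 1.06-fold between the iTreg groups and an interval of -0.34 to 0.50 on the log2 scale. Cenpf, which coats the outer kinetochore late in G2, was called in mTO-iTreg against day 0 cells (8.25-fold, adjusted p = 0.014), a call lost without mTO-iTreg replicate 1 or 3 (0.055 to 0.061). Cenpj and Cenpq were lower. Cenpj, a centriole assembly protein that shares only its name with the centromere group, was at 36.8, 36.6 and 25.9 in mTO-iTreg, 17.2, 14.2 and 22.7 in TGFβ-iTreg and 86.0, 86.0 and 62.2 in day 0 cells. Day 0 lay above both iTreg groups, with log2 changes of -1.21 ± 0.42 (adjusted p = 0.037) in mTO-iTreg and -2.06 ± 0.42 (adjusted p = 0.0039) in TGFβ-iTreg cells. Cenpq, a further subunit of the inner network, fell in mTO-iTreg against day 0 cells alone (59.4 ± 11.5 against 112 ± 22.8, adjusted p = 0.027). Neither fall in mTO-iTreg cells was firm: Cenpj lost its call without any mTO-iTreg replicate or day 0 replicate 1 or 2 (0.057 to 0.11), and Cenpq without mTO-iTreg replicate 1 or day 0 replicate 2 or 3 (0.079 to 0.094).

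Most outer kinetochore genes rose over day 0. Of 7, 6 (85.7%) were higher in mTO-iTreg and 5 (71.4%) in TGFβ-iTreg than in day 0 cells, against 19.4% and 9.78% of all genes. Higher in mTO-iTreg than in TGFβ-iTreg cells were 2 (28.6%), against 14.9% of all genes. Ska1, of the complex that tracks shrinking microtubules, was at 199, 207 and 195 in mTO-iTreg, 41.8, 69.2 and 61.8 in TGFβ-iTreg and 1.75, 0 and 0 in day 0 cells. Day 0 held 1 count of it, the mTO-iTreg libraries were alike, and the iTreg groups were apart. The ratio of counts to day 0 was 379 in mTO-iTreg (95% counting interval 67.8 to 14966) and 118 in TGFβ-iTreg cells (21.0 to 4683), and the iTreg groups differed 3.48-fold (1.81 ± 0.53, adjusted p = 0.023). That difference lost its call without any mTO-iTreg replicate or TGFβ-iTreg replicate 1 or 3 (0.059 to 0.08).

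The Ndc80 complex binds microtubules directly, and all its subunits were called higher in mTO-iTreg than in day 0 cells. Spc25 stood at 297, 220.2 and 275 in mTO-iTreg, 116, 121 and 117 in TGFβ-iTreg and 73.7, 26.9 and 20.0 in day 0 cells. It was 2.24-fold higher in mTO-iTreg than in TGFβ-iTreg cells (1.15 ± 0.39, adjusted p = 0.044), a call lost without any 1 of the 6 iTreg libraries (0.063 to 0.12). Its partner Spc24 averaged 176 ± 61.3 in mTO-iTreg, 95.7 ± 17.3 in TGFβ-iTreg and 22.9 ± 11.5 in day 0 cells, and Ndc80 77.5 ± 35.4, 35.3 ± 8.21 and 17.9 ± 9.23. Nuf2 was 6.92-fold higher in mTO-iTreg and 4.57-fold higher in TGFβ-iTreg than in day 0 cells (adjusted p = 0.00014 and 0.002). Ndc80 was called in mTO-iTreg against day 0 cells alone (4.33-fold, adjusted p = 0.0091). Ska2 had its lowest level in mTO-iTreg cells, at 103 ± 41.2, against 175 ± 15.5 in TGFβ-iTreg and 129 ± 44.1 in day 0 cells, and was not called in any comparison.

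Condensin and chromosome genes included some of the best-read members. Of 8, 7 (87.5%) were higher in mTO-iTreg and 5 (62.5%) in TGFβ-iTreg than in day 0 cells, against 19.4% and 9.78% of all genes. Higher in mTO-iTreg than in TGFβ-iTreg cells were 3 (37.5%), against 14.9% of all genes. Top2a, topoisomerase II alpha, was at 1200.4, 719 and 1092 in mTO-iTreg, 632, 514 and 365 in TGFβ-iTreg and 63.2, 72.6 and 97.1 in day 0 cells. All groups were apart, with 12.9-fold in mTO-iTreg and 6.49-fold in TGFβ-iTreg cells over day 0 (adjusted p = 3.6e-07 and 1.5e-05) and 1.99-fold between the iTreg groups (1.00 ± 0.25, adjusted p = 0.0099). The last of these reached an adjusted p of 0.05 without mTO-iTreg replicate 1 or TGFβ-iTreg replicate 3.

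Ncapd2 and Ncaph are subunits of condensin I, which enters the chromosomes once the nuclear envelope opens. Ncapd2 stood at 1001, 546 and 1189 in mTO-iTreg, 307, 264 and 164 in TGFβ-iTreg and 114, 51.1 and 68.6 in day 0 cells, and Ncaph at 336, 174 and 362 in mTO-iTreg, 83.6, 90.9 and 121 in TGFβ-iTreg and 12.3, 24.2 and 17.9 in day 0 cells. Neither gene overlapped between any groups. They were 3.72-fold and 2.96-fold higher in mTO-iTreg than in TGFβ-iTreg cells (adjusted p = 0.0013 and 0.0083), and no alternative ended either call. Ncapg, the remaining condensin I subunit here, was 4.37-fold higher without passing the test (adjusted p = 0.096). The condensin II subunit Ncapd3 had 175 ± 76.3 in mTO-iTreg, 95.0 ± 14.3 in TGFβ-iTreg and 172 ± 56.0 in day 0 cells, and was not called in any comparison. Mki67, the proliferation marker Ki-67 that coats mitotic chromosomes, was at 308, 137 and 280.3 in mTO-iTreg, 150.04, 215 and 91.4 in TGFβ-iTreg and 21.1, 0 and 42.2 in day 0 cells. The iTreg libraries overlapped, and their log2 difference of 0.66 ± 0.99 (interval -1.47 to 2.80) was too imprecise to place in this fit. That error takes in the spread of the day 0 libraries, with replicate 2 at 0, and not that of the iTreg libraries alone. In TGFβ-iTreg against day 0 cells the call of Mki67 (adjusted p = 0.015) was lost without TGFβ-iTreg replicate 2 (0.056).

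Most mitotic kinesins rose in mTO-iTreg over day 0 cells. Of 11, 9 (81.8%) were higher in mTO-iTreg and 5 (45.5%) in TGFβ-iTreg than in day 0 cells, against 19.4% and 9.78% of all genes. Higher in mTO-iTreg than in TGFβ-iTreg cells were 4 (36.4%), against 14.9% of all genes. Kif23, the motor of the centralspindlin complex that marks the division plane, was at 267, 124 and 256 in mTO-iTreg, 63.9, 48.8 and 47.4 in TGFβ-iTreg and 87.7, 105 and 50.6 in day 0 cells. The mTO-iTreg libraries lay above all others, and the TGFβ-iTreg and day 0 libraries overlapped. Kif23 was 4.04-fold higher in mTO-iTreg than in TGFβ-iTreg cells (1.93 ± 0.36, adjusted p = 0.0017) and 2.66-fold higher than in day 0 cells (adjusted p = 0.0098), whereas TGFβ-iTreg and day 0 cells differed by -0.54 ± 0.36 on the log2 scale (adjusted p = 0.34).

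Kif20b and Kif20a act at the midzone and in cytokinesis. Kif20b stood at 39.6, 32.9 and 33.2 in mTO-iTreg, 0, 4.75 and 2.47 in TGFβ-iTreg and 45.6, 5.38 and 8.44 in day 0 cells. It was 14.6-fold higher in mTO-iTreg than in TGFβ-iTreg cells (3.73 ± 0.86, adjusted p = 0.006), and day 0 replicate 1 alone reached the mTO-iTreg range. Kif20a had 58.0, 21.7 and 43.2 in mTO-iTreg, 0, 10.9 and 5.93 in TGFβ-iTreg and 5.26, 0 and 0 in day 0 cells. The ratio of its counts to the 3 counts of day 0 was 25.4 in mTO-iTreg cells (95% counting interval 8.57 to 124). Its call between the iTreg groups (7.32-fold, adjusted p = 0.038) was lost without any mTO-iTreg replicate or TGFβ-iTreg replicate 1 or 3 (0.058 to 0.14).

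Kif18b, which trims astral microtubules, was the other called mitotic kinesin between the iTreg groups, at 69.9 ± 10.8 in mTO-iTreg, 12.7 ± 6.79 in TGFβ-iTreg and 4.21 ± 3.56 in day 0 cells (5.51-fold, adjusted p = 0.014, and 0.05 to 0.059 without mTO-iTreg replicate 1 or TGFβ-iTreg replicate 1). Kif11, the Eg5 motor that pushes spindle poles apart, was 16.2-fold higher in mTO-iTreg and 6.82-fold higher in TGFβ-iTreg than in day 0 cells (adjusted p = 0.00093 and 0.014). Kif2c, a microtubule depolymerase of the centromere, averaged 121 ± 69.7 in mTO-iTreg, 34.2 ± 14.8 in TGFβ-iTreg and 5.39 ± 4.72 in day 0 cells. Kif4, a chromokinesin, averaged 127 ± 52.8 in mTO-iTreg, 49.8 ± 17.8 in TGFβ-iTreg and 3.40 ± 4.45 in day 0 cells. Kif11 lost its call in TGFβ-iTreg against day 0 cells without TGFβ-iTreg replicate 1 (adjusted p = 0.056), and Kif2c without TGFβ-iTreg replicate 2 or 3 or day 0 replicate 2 (0.053 to 0.082). Kif4 was 37.5-fold higher in mTO-iTreg and 14.7-fold higher in TGFβ-iTreg than in day 0 cells (adjusted p = 0.0001 and 0.002).

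**Figure D4:**
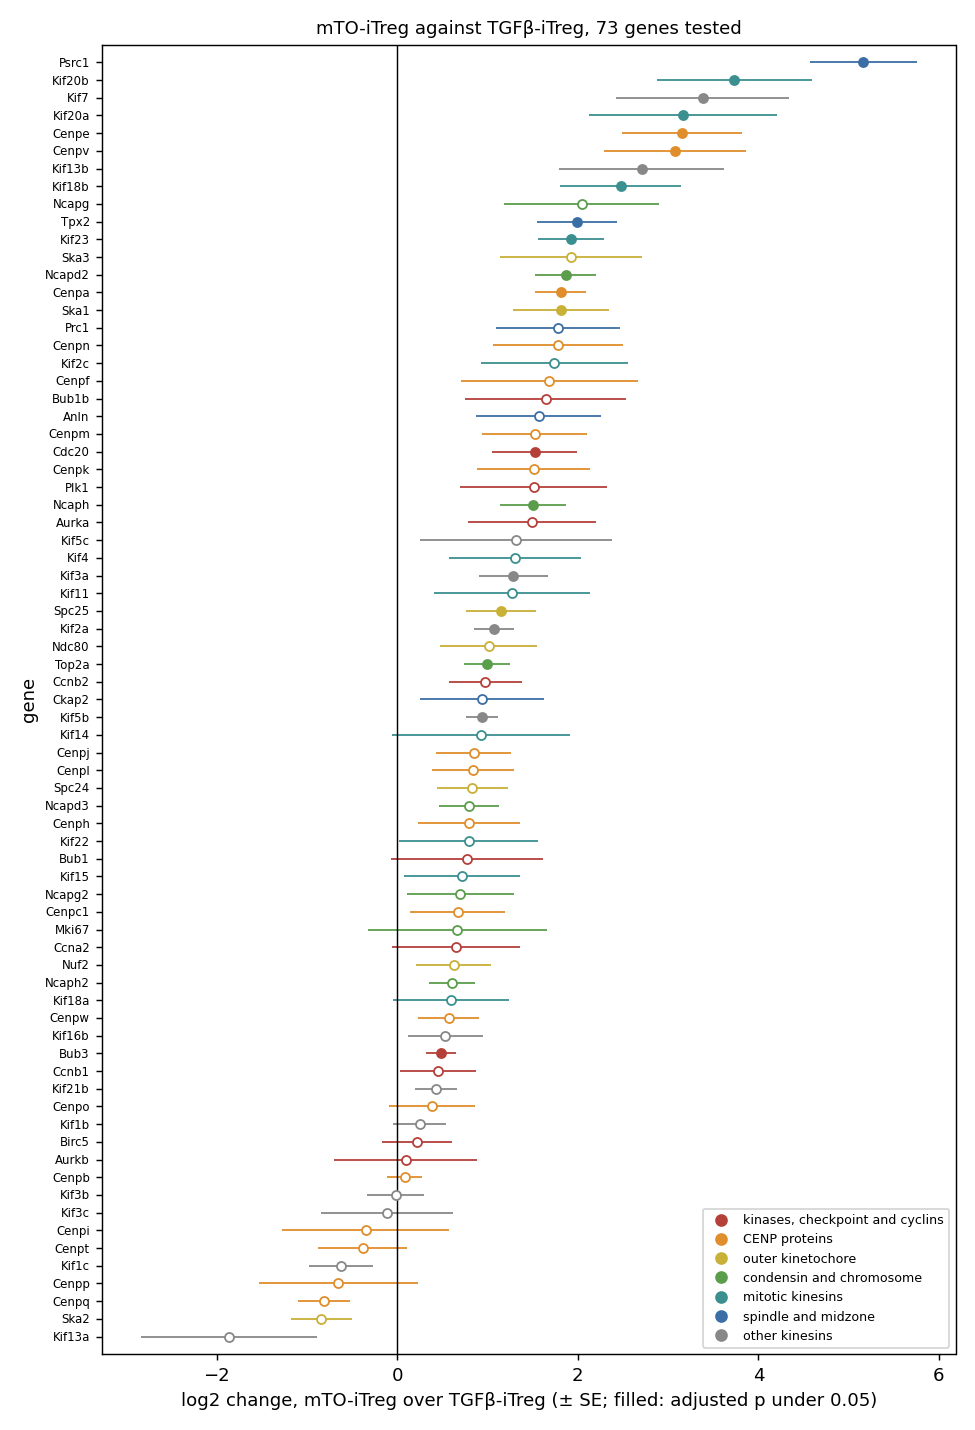
Log2 change of mTO-iTreg over TGFβ-iTreg cells (horizontal axis) with its standard error for each of the 73 genes tested, ordered by size and coloured by role, filled where the adjusted p was under 0.05. Psrc1 is at the top with 5.16, the 21 filled points all lie to the right of 0, and Aurkb, Birc5 and Cenpb lie near 0.

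The other kinesins were called higher over day 0 in a smaller share than the mitotic genes. For the most part they are motors of vesicle, organelle and ciliary transport, but Kif2a, a microtubule depolymerase, is among them. Of 13 tested, 3 (23.1%) were higher and 1 lower in mTO-iTreg than in day 0 cells, against 19.4% and 14.5% of all genes. In TGFβ-iTreg against day 0 cells 1 (7.69%) was higher and 5 lower, against 9.78% and 8.80%. Higher in mTO-iTreg than in TGFβ-iTreg cells were 5 (38.5%), against 14.9% of all genes. Kif13b and Kif7, which met the filter on low values only with their mTO-iTreg libraries, are among the 3 and the 5. The others of the 5 were Kif2a, Kif3a and Kif5b, whose calls ran in the same direction as those of the mitotic genes. The 18 genes summed to 1807 ± 167 normalized counts in mTO-iTreg, 1168 ± 106 in TGFβ-iTreg and 1743 ± 144 in day 0 cells (SD, n = 3 each). Kif5b, the conventional kinesin heavy chain found in most tissues, was at 447, 408 and 525 in mTO-iTreg, 239, 200.1 and 282 in TGFβ-iTreg and 428, 438 and 405 in day 0 cells. TGFβ-iTreg libraries lay below both other groups. The gene was 1.91-fold higher in mTO-iTreg than in TGFβ-iTreg cells (0.94 ± 0.18, adjusted p = 0.0016) and fell by 0.83 on the log2 scale in TGFβ-iTreg against day 0 cells (SE 0.18, adjusted p = 0.0054), while mTO-iTreg and day 0 cells differed by 0.11 ± 0.18 (interval -0.27 to 0.49).

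Kif2a, a microtubule depolymerase of spindle poles and neurites, was at 391, 328 and 324 in mTO-iTreg, 155, 163 and 174 in TGFβ-iTreg and 247, 374 and 206 in day 0 cells. It was 2.12-fold higher in mTO-iTreg than in TGFβ-iTreg cells (1.08 ± 0.22, adjusted p = 0.003). The fall in TGFβ-iTreg against day 0 cells (-0.70 ± 0.22, adjusted p = 0.043) was lost without any 1 of 7 libraries, all but mTO-iTreg replicate 3 and day 0 replicate 3 (0.05 to 0.17). Kif16b, an endosome motor, and Kif21b, a motor that limits microtubule growth, were also lower in TGFβ-iTreg than in day 0 cells (-1.28 ± 0.41 and -0.73 ± 0.23, adjusted p = 0.046 and 0.043). Kif16b lost that call without mTO-iTreg replicate 1 or 3, TGFβ-iTreg replicate 2 or 3 or day 0 replicate 1 or 2 (0.053 to 0.15), and Kif21b without any TGFβ-iTreg or day 0 replicate (0.063 to 0.13). With equal library totals, under which the median of all genes in this comparison was 0.23 (-0.02 as reported), the count of members lower in TGFβ-iTreg than in day 0 cells was 3.

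Kif1b, a transporter of mitochondria and vesicles, fell in both iTreg groups, at 116, 97.4 and 67.8 in mTO-iTreg, 98.4, 61.7 and 74.6 in TGFβ-iTreg and 158, 212 and 215 in day 0 cells. Every day 0 library lay above every iTreg library. The log2 changes were -1.07 ± 0.29 in mTO-iTreg (adjusted p = 0.012, and 0.051 without mTO-iTreg replicate 3) and -1.32 ± 0.29 in TGFβ-iTreg cells (adjusted p = 0.0068). Kif3c rose over day 0 in both iTreg groups, at 25.9, 25.4 and 25.9 in mTO-iTreg, 44.3, 17.6 and 27.7 in TGFβ-iTreg and 5.26, 0 and 2.11 in day 0 cells. Kif3a, a subunit of the ciliary and vesicle motor kinesin-2, was higher in mTO-iTreg than in TGFβ-iTreg cells (2.30-fold, adjusted p = 0.022), a call lost without any mTO-iTreg replicate or TGFβ-iTreg replicate 3 (0.052 to 0.092).

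Kif7 and Kif13b were rarely read outside the mTO-iTreg libraries. Kif7, a regulator of Hedgehog signalling at the cilium, was at 8.87, 37.8 and 61.1 in mTO-iTreg, 0, 1.36 and 7.90 in TGFβ-iTreg and 1.75, 2.69 and 3.16 in day 0 cells. It was called over TGFβ-iTreg cells (11.6-fold, adjusted p = 0.019) and over day 0 cells (adjusted p = 0.025). Kif7 met the filter on low values only with its mTO-iTreg libraries, so these calls are no independent test of its level there. The first call was lost without mTO-iTreg replicate 2 or 3 or TGFβ-iTreg replicate 1 or 2 (0.053 to 0.1), and the second without mTO-iTreg replicate 2 or 3 or day 0 replicate 1 (0.066 to 0.13). Kif13b had 64 counts in mTO-iTreg, 7 in TGFβ-iTreg and 2 in day 0 cells. It was tested only because of its level in the mTO-iTreg libraries, so no test of it is given. The 5 members not tested for lack of signal were Kif1a, with no count, Kif21a, Kif24 and Kif5a, with 2 to 17 counts in any group that had any, and Kif9. Kif9, known from cilia and sperm tails, had normalized counts of 2.73, 59.6 and 32.5 in mTO-iTreg, none in the TGFβ-iTreg libraries and 1 count in all on day 0. With 3 counts put in place of none for the TGFβ-iTreg group, the ratio of mTO-iTreg to TGFβ-iTreg counts would be 42.3, which is not a lower bound. Kif9 was chosen for mention after its values were seen.

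Within the mTO-iTreg group, replicate 2 held less of the mitotic genes than replicates 1 and 3. It was the lowest of its group in 46 of the 60 mitotic genes tested (76.7%), against 33.8% of all genes tested, and lay 0.81 below the mean of the other two on the log2 scale in the median gene. It was lowest in 4 of the 13 other kinesins. Its total of 7969853 counts was the largest of its group. Without it, 51 members were higher and 2 lower in mTO-iTreg than in day 0 cells and 19 were higher in mTO-iTreg than in TGFβ-iTreg cells. Among day 0 libraries, the shallow replicate 2 was lowest in 30 of the 60 (50.0%), against 35.7% of all genes tested. Without it and TGFβ-iTreg replicate 1 the counts of higher members were 52 in mTO-iTreg against day 0, 32 in TGFβ-iTreg against day 0 and 20 in mTO-iTreg against TGFβ-iTreg cells.

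Markers of other cell types were read in the same libraries. Myeloid and antigen-presenting markers summed to 660.2, 423 and 477 in mTO-iTreg, 312, 342 and 155 in TGFβ-iTreg and 1333, 731 and 5724 in day 0 cells, with 8 of the 11 genes listed present in the table. They were highest in day 0 replicate 3. That replicate was the highest day 0 library in 23 of the 60 mitotic genes (38.3%), as many as replicate 1, against 33.5% of all genes tested. It lay 0.50 above the mean of the other 2 on the log2 scale in the median mitotic gene, against 0.04 over all genes tested. For replicate 1 the median over the mitotic genes was 0.16. Without replicate 3 53 members were higher in mTO-iTreg and 35 in TGFβ-iTreg than in day 0 cells. Epithelial markers, of which 9 of 21 were in the table, summed to 43.7, 55.8 and 139 in mTO-iTreg, 133, 141 and 128 in TGFβ-iTreg and 38.6, 18.8 and 22.2 in day 0 cells. Epcam and Cdh1 made up most of the sum in the iTreg libraries, and both were called higher in each iTreg group than in day 0 cells. Lgals4 was at 9.55, 9.93 and 9.96 in mTO-iTreg, 0, 3.39 and 0.49 in TGFβ-iTreg and 3.51, 0 and 11.6 in day 0 cells, with no call (adjusted p = 0.083 between the iTreg groups). Ascl2 was read in mTO-iTreg replicate 3 (14.6) and day 0 replicate 1 (22.8) alone. Vil1, Lgr5 and Muc2 were at 0 or near it in every library. B cell markers (4 of 5 in the table) summed to 104, 83.7 and 61.1 in mTO-iTreg, 49.2, 69.2 and 30.6 in TGFβ-iTreg and 10.5, 10.8 and 57.0 in day 0 cells, with group means in the same order as the mitotic genes. NK cell markers (3 in the table) summed to 4.77, 3.72 and 2.66 in mTO-iTreg, 118, 61.0 and 58.3 in TGFβ-iTreg and 463, 199 and 511 in day 0 cells. The part of these markers in the results was not tested.

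Genes that work beside the members were read from 5 further lists, whose counts stand against the shares of all genes tested, namely 19.4% higher and 14.5% lower in mTO-iTreg than in day 0 cells, 9.78% and 8.80% in TGFβ-iTreg against day 0 cells and 14.9% and 11.8% in mTO-iTreg against TGFβ-iTreg cells. Condensin core subunits, the Knl1 and Mis12 partners and the loaders of Cenpa formed the first list: of 13 tested, 7 were higher and 1 lower in mTO-iTreg than in TGFβ-iTreg cells, with a median log2 change of 1.25. Against day 0, 6 were higher and 1 lower in mTO-iTreg cells, and none was higher and 2 were lower in TGFβ-iTreg cells. Hjurp, the chaperone that places Cenpa at centromeres, was at 630.2, 306 and 444 in mTO-iTreg, 34.4, 84.8 and 55.8 in TGFβ-iTreg and 77.2, 59.1 and 83.3 in day 0 cells. Like Cenpe and Kif23, it was higher in mTO-iTreg than in TGFβ-iTreg cells (2.99 ± 0.35, adjusted p = 4.2e-05) while TGFβ-iTreg cells did not differ from day 0 past the test (adjusted p = 0.47). Smc4, the condensin ATPase, stood at 1652, 1391 and 1676 in mTO-iTreg, 588, 585 and 434 in TGFβ-iTreg and 1611, 1175 and 1174 in day 0 cells, so that it fell in TGFβ-iTreg cells (-1.30 ± 0.17, adjusted p = 0.00015) and did not differ past the test between mTO-iTreg and day 0 cells (adjusted p = 0.24). Mis18a, which prepares centromeres for Cenpa, was the lower one in mTO-iTreg against TGFβ-iTreg cells (-1.10 ± 0.24, adjusted p = 0.0044).

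Cohesin and separase genes moved in both directions. Of 15 tested, 4 were higher and 3 lower in mTO-iTreg than in day 0 cells, 3 were higher and 6 lower in TGFβ-iTreg than in day 0 cells, and 4 were higher and 1 lower in mTO-iTreg than in TGFβ-iTreg cells. Pttg1, securin, which holds separase back until anaphase, was at 1156, 1370 and 1190.4 in mTO-iTreg, 187, 197 and 152 in TGFβ-iTreg and 421, 489 and 368 in day 0 cells. It rose in mTO-iTreg (1.54 ± 0.17, adjusted p = 1.4e-05) and fell in TGFβ-iTreg cells (-1.25 ± 0.17, adjusted p = 0.00022) against day 0, and mTO-iTreg replicate 2 was its highest library. Nipbl, the cohesin loader, averaged 405 ± 113 in mTO-iTreg, 104 ± 49.1 in TGFβ-iTreg and 363.4 ± 64.6 in day 0 cells. Espl1, separase itself, rose over day 0 in both iTreg groups (adjusted p = 0.00031 in mTO-iTreg and 0.022 in TGFβ-iTreg cells), the second lost without TGFβ-iTreg replicate 2 or 3 or day 0 replicate 1 or 2 (0.064 to 0.11), with limma-voom (0.14) or in a fit of those 2 groups alone (0.068).

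Of 29 spindle checkpoint and APC/C genes outside the members, 12 were higher and 2 lower in mTO-iTreg than in day 0 cells, 8 were higher and none lower in TGFβ-iTreg than in day 0 cells, and 2 were higher and 1 lower in mTO-iTreg than in TGFβ-iTreg cells. The 2 were Mad2l1, the checkpoint inhibitor of Cdc20, at 862, 540.3 and 954 in mTO-iTreg, 175, 369 and 184 in TGFβ-iTreg and 98.2, 164 and 117 in day 0 cells, and Ube2c, the ubiquitin-conjugating enzyme of the APC/C, at 2162, 778 and 1703 in mTO-iTreg, 603, 494 and 444 in TGFβ-iTreg and 43.9, 26.9 and 65.4 in day 0 cells. Their log2 changes between the iTreg groups were 1.74 ± 0.30 and 1.48 ± 0.35 (adjusted p = 0.00098 and 0.0074).

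Among 30 genes of spindle, centrosome and cytokinesis, 19 were higher and 2 lower in mTO-iTreg than in day 0 cells, 14 were higher and 1 lower in TGFβ-iTreg than in day 0 cells, and 6 were higher in mTO-iTreg than in TGFβ-iTreg cells. Racgap1, the partner of Kif23 in centralspindlin, stood at 962, 326 and 527 in mTO-iTreg, 588, 621 and 537 in TGFβ-iTreg and 105, 48.4 and 143 in day 0 cells. It rose over day 0 in both iTreg groups (adjusted p = 0.00018 in mTO-iTreg and 0.00038 in TGFβ-iTreg cells) and its log2 difference between them was -0.08 ± 0.38. Of 34 genes of mitotic entry and its transcription, 16 were higher and 4 lower in mTO-iTreg than in day 0 cells, 11 were higher and none lower in TGFβ-iTreg than in day 0 cells, and 3 were higher and 2 lower in mTO-iTreg than in TGFβ-iTreg cells. Cdk1, the partner of cyclin B, was at 1124, 618 and 1131 in mTO-iTreg, 457, 345 and 364 in TGFβ-iTreg and 17.5, 80.6 and 51.7 in day 0 cells, 1.26 ± 0.42 higher on the log2 scale between the iTreg groups (adjusted p = 0.04), a call lost without mTO-iTreg replicate 1 or 3 or any TGFβ-iTreg replicate (0.061 to 0.12). Cks2, which binds Cdk1, differed by -0.19 ± 0.23 between them (adjusted p = 0.57), and rose over day 0 in both.

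Read beside the calls, the promoter letters were unevenly spread. Of members called higher in mTO-iTreg than in day 0 cells, 34 of the 46 with a promoter (73.9%) held CHR letters, against 2 of 15 (13.3%) of those not called and 0 of 3 of those called lower. In TGFβ-iTreg against day 0 cells the letters stood in 24 of 33 called higher (72.7%) and in 12 of 27 not called (44.4%). Between the iTreg groups the shares were 10 of 16 (62.5%) of members called higher in mTO-iTreg cells and 26 of 48 (54.2%) of those not called. Among all genes tested that had a promoter the share was 16.3%. Other kinesins, of which 2 of 14 held CHR letters, made up 9 of the 17 members not called in mTO-iTreg against day 0 cells. Call and role are therefore mixed in these shares. These are counts over genes chosen by name, with no test.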

How the data were processed

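RNA was counted per gene by a modified CEL-Seq protocol, which reads the 3′ ends of transcripts, so levels are not compared between genes. The deposited table holds normalized counts for 14912 genes in 9 libraries. BWA, the mm10 genome build and DESeq2 are named in the submitters' processing notes, with no versions. Each value was a whole multiple of what a count is worth in its library (100% of values within 0.1), which gave the library totals.

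Genes with at least 5 normalized counts in at least 3 libraries were fitted with limma 3.58.1 (R 4.3.3) on log2(value + 1), with all 3 groups in the fit and a mean-dependent prior variance, and p-values were adjusted over all 10983 genes by the Benjamini-Hochberg method. Ratios to groups with 3 counts or fewer are count ratios with exact 95% intervals, which cover counting error only. Python 3.11.15 (pandas 2.3.3 with numpy 2.4.6) served for tables and matplotlib 3.10.9 for figures. The fit was tested on simulated data with the same spread setting for all genes. Changes were simulated only in genes averaging 20 or more, so rarely read members were not covered. Alternatives changed the filter, pseudocount, scaling, spread model, replicate block and the libraries included.

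The members and lists were chosen with earlier results of these data known. Members were named where they stood on a list of 34 landmark genes, were among the 5 largest rises or falls of a comparison where the higher group averaged 20 or more, or were called lower, and members not tested are named with their counts. Cenpb, Cenph, Cenpk, Cenpm, Cenpn, Cenpv, Cenpw, Kif13b, Kif18b, Kif3a, Kif3c, Ncapd3 and Ska2, and the genes named from other lists, were chosen after their values were seen.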

Additional observations from a re-analysis of the deposited data

How the results depend on the processing

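Over 22 alternatives, the count of members higher in mTO-iTreg than in day 0 cells was 45 to 54 (53 as reported). For TGFβ-iTreg against day 0 cells the count higher was 16 with limma-voom and 28 to 37 when 1 library was left out (38 as reported). For mTO-iTreg against TGFβ-iTreg cells it was 34 with these groups alone, 35 with limma-voom and 13 to 26 when 1 library was left out (21 as reported). The count lower in TGFβ-iTreg than in day 0 cells (6 as reported) was 3 with no filter, with equal totals, with scaling without mitochondrial genes and Rn45s, without both shallowest libraries and with limma-voom, and 3 to 5 when 1 library was left out. The count lower in mTO-iTreg than in day 0 cells (3 as reported) was 1 with equal totals, with scaling without mitochondrial genes and Rn45s and without both shallowest libraries, and 1 to 3 when 1 library was left out. The count lower in mTO-iTreg than in TGFβ-iTreg cells (0 as reported by limma) was 1 with a filter at 20, TMM factors, quantile normalization or array weights, 2 with limma-voom, and 0 to 1 when 1 library was left out. The causes were not tested. With a replicate block the counts higher were 53 in mTO-iTreg against day 0, 35 in TGFβ-iTreg against day 0 and 20 in mTO-iTreg against TGFβ-iTreg cells. The block ended the calls of Kif20a between the iTreg groups, Cenpj in mTO-iTreg against day 0 cells and Cenpn, Kif16b and Kif2a in TGFβ-iTreg against day 0 cells (adjusted p 0.053 to 0.063). Same-numbered libraries deviated together with correlations of -0.0505 to 0.0604, and libraries of different numbers with -0.0839 to 0.0507. The numbers were not taken as pairs in the fit reported, but correlations this near 0 do not exclude pairing. Of the 9 libraries, 5 were closest to a library of their own number. Day 0 and TGFβ-iTreg libraries of the same number carry neighbouring codes in the sample descriptions. Their correlations were 0.0458, -0.0172 and 0.0604 for replicates 1 to 3, and whether the codes mark pairs is not named in the labels. Other settings that kept all libraries or left out both shallowest ended calls of Aurka, Bub1b, Bub3, Cenpn, Espl1, Kif11, Kif16b, Kif21b, Kif2a, Kif2c, Mki67, Ncapd2 and Spc25 in TGFβ-iTreg against day 0, Cenpj and Cenpq in mTO-iTreg against day 0 and Bub3, Cdk1, Kif20a, Kif7, Ska1 and Spc25 in mTO-iTreg against TGFβ-iTreg cells (adjusted p 0.05 to 0.29). Calls were gained as well as lost. Over the named genes and all alternatives, calls were gained 73 times and lost 68 times in mTO-iTreg against TGFβ-iTreg cells. In mTO-iTreg against day 0 cells they were gained 4 and lost 33 times, and in TGFβ-iTreg against day 0 cells gained 12 and lost 100 times. Log2 changes that turned sign were not called either way. Cenpq in TGFβ-iTreg against day 0 cells was 0.15 with equal totals and 0.033 with scaling without mitochondrial genes and Rn45s (-0.10 as reported). Kif7 in that comparison was 0.44 without both shallowest libraries and -1.18 to 0.39 when 1 library was left out (-0.34 as reported), and Cenpe was -0.20 to 1.32 (0.44 as reported). Kif21b in mTO-iTreg against day 0 cells was -0.53 to 0.00077 (-0.30 as reported), and Aurkb in mTO-iTreg against TGFβ-iTreg cells was -0.11 to 0.39 (0.09 as reported). In mTO-iTreg against TGFβ-iTreg cells, Cenpb was -0.0097 with TMM factors and -0.0094 to 0.14 when 1 library was left out (0.08 as reported), Racgap1 was -0.48 to 0.29, Cks2 -0.36 to 0.052, and Kif3c -0.43 to 0.21, with 0.053 under array weights, 0.057 with limma-voom and 0.21 without both shallowest libraries. In mTO-iTreg against day 0 cells, Ncapd3 was 0.21 with equal totals, 0.11 with scaling without mitochondrial genes and Rn45s and with array weights, 0.20 without both shallowest libraries and -0.34 to 0.28 when 1 library was left out, Ska2 was -0.61 to 0.014, and Nipbl -0.0087 without both shallowest libraries and -0.079 to 0.27 when 1 library was left out. In TGFβ-iTreg against day 0 cells, Mis18a was -0.017 to 0.25 and Kif13b -0.18 to 0.77. Depth limits members with few counts on day 0.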
